A study of Mus musculus with 15 samples.

Results

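The comparison described here follows mesoderm-derived cells between 48 h and 7 d of culture in an unchanged medium, and it rests on 5 of the 15 RNA libraries of the series, picked by their labels. Tbxt 7 d cells (3 libraries) were Tbxt::GFP+ cells grown for 7 d in FGF/CHIR and then sorted as double negative, that is, without signal from either fluorescent reporter. Tbxt 48 h cells (2 libraries) were neuromesodermal progenitors (NMPs) grown for 48 h in FGF/CHIR and then sorted for the GFP reporter of Tbxt. The cells of every library derived from mouse embryonic stem cells, the line STR-KI, of genotype Sox2::mCherry/WT, Tbxt::GFP/WT. All cells had first been brought to the NMP state with 10 ng/mL FGF2 for 48 h and then FGF2 plus 5 µM CHIRON99021 (CHIR) for 24 h; CHIR inhibits glycogen synthase kinase and so activates WNT signalling. The same fit also held NMPs sorted positive for both reporters (3 libraries). It further held Sox2 48 h cells (2 libraries), sorted for mCherry after 48 h in FGF/CHIR. Sox2-derived cells after 7 d in FGF/CHIR, sorted for mCherry (1 library) or as double negative (1 library), were also held. The last 2 groups were Sox2-derived cells labelled as grown for 7 d in FGF, with CHIR not named. They were sorted for mCherry (2 libraries) or as double negative (1 library). Between Tbxt 7 d and Tbxt 48 h cells the sorting gate changed together with time, so these cannot be told apart, and the labels do not settle whether the 7 d were counted from the NMP state or from the sort at 48 h. They also do not say that the libraries of a group came from separate cultures, so p-values measure only the spread between these libraries.

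Presomitic mesoderm is the unsegmented paraxial mesoderm at the tail end of the embryo, where FGF and WNT signals are high and oscillating Notch pathway genes, the segmentation clock, set the pace at which somites form. Mesenchyme is a loose tissue of motile cells embedded in a matrix of collagens and glycoproteins that the cells secrete themselves. Mesenchyme derived from mesoderm gives rise to the connective tissue, skeleton and dermis of the trunk and limbs.

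Levels are counts per 1000000 (CPM), as deposited, for 56092 named genes. Depth, inferred from the size of 1 read, was 3.43 to 5.05 M reads (M, 1000000) in the Tbxt 7 d libraries and 5.93 to 9.88 M reads in the Tbxt 48 h libraries. A count of 3 reads, the floor used here, came to 0.594 to 0.874 CPM in Tbxt 7 d libraries and 0.304 to 0.506 CPM in Tbxt 48 h libraries, and such floors and intervals cover counting error only. Mitochondrial genes took 6.24 to 6.98% of CPM in Tbxt 7 d cells and 5.01 to 5.38% in Tbxt 48 h cells, and the part of this difference in the results was not tested. Fold changes are Tbxt 7 d over Tbxt 48 h on the log2(CPM + 1) scale, given with the standard error, and they understate the change of genes with low levels. Rose, fell, higher and lower are used of genes with an adjusted p under 0.05 in limma.

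Replicate 1 of the Tbxt 7 d cells stood apart from the other 2 libraries of its group. Across the 12943 genes tested, Pearson's r of its log2 values was 0.945 with replicate 2 and 0.943 with replicate 3, while replicates 2 and 3 reached 0.988 with each other and the Tbxt 48 h pair 0.986. Of the 8512 genes with at least 20 CPM in any of the 5 libraries, 645 lay more than 2-fold from the mean of the other 2 libraries in replicate 1, against 230 in replicate 2 and 228 in replicate 3. Between replicates 2 and 3 only 41 genes differed that much, and between the Tbxt 48 h libraries 86. Where a named gene gained or lost its call without this library, its value without it is given too.

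Of the 12943 genes tested, 7014 (54.2%) passed the threshold, 3969 higher (30.7%) and 3045 lower (23.5%) in Tbxt 7 d cells. A test against a 2-fold minimum called 1628 genes (12.6%), 1122 higher (8.67%) and 506 lower (3.91%). For 38.7% of the genes all Tbxt 7 d libraries lay above both Tbxt 48 h libraries, for 30.7% they all lay below, and 53.8% passed the threshold with groups that did not overlap. The balance of directions depended on the scaling: quantile normalization moved the median log2 fold change of all genes by −0.19, from a main value of 0.09, and gave 2954 higher and 3751 lower calls. Because so many genes passed, counts for gene lists are read against these shares, and the test with a 2-fold minimum is given beside the plain one for most lists. Without replicate 1 of the Tbxt 7 d cells, 7220 genes passed, and 6569 genes were called in the same direction with and without it.

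The 2 reporter genes set the gate, so their values describe the sort. Tbxt, the gene of the mesodermal T-box factor Brachyury, which the table lists under its older symbol T, stood at 0.582, 0.396 and 2.11 CPM in Tbxt 7 d cells and at 222 and 216 CPM in Tbxt 48 h cells (log2 fold change −6.86 ± 0.33, adjusted p = 1.67e-08). Sox2, the progenitor factor gene under the mCherry reporter, stood at 1.46, 0 and 0.263 CPM in Tbxt 7 d cells and at 34.2 and 38.5 CPM in Tbxt 48 h cells (−4.68 ± 0.30, adjusted p = 1.52e-07). In bulk samples, fewer cells of a type and less RNA per cell cannot be told apart, here and in all values below.

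**Figure D1:**
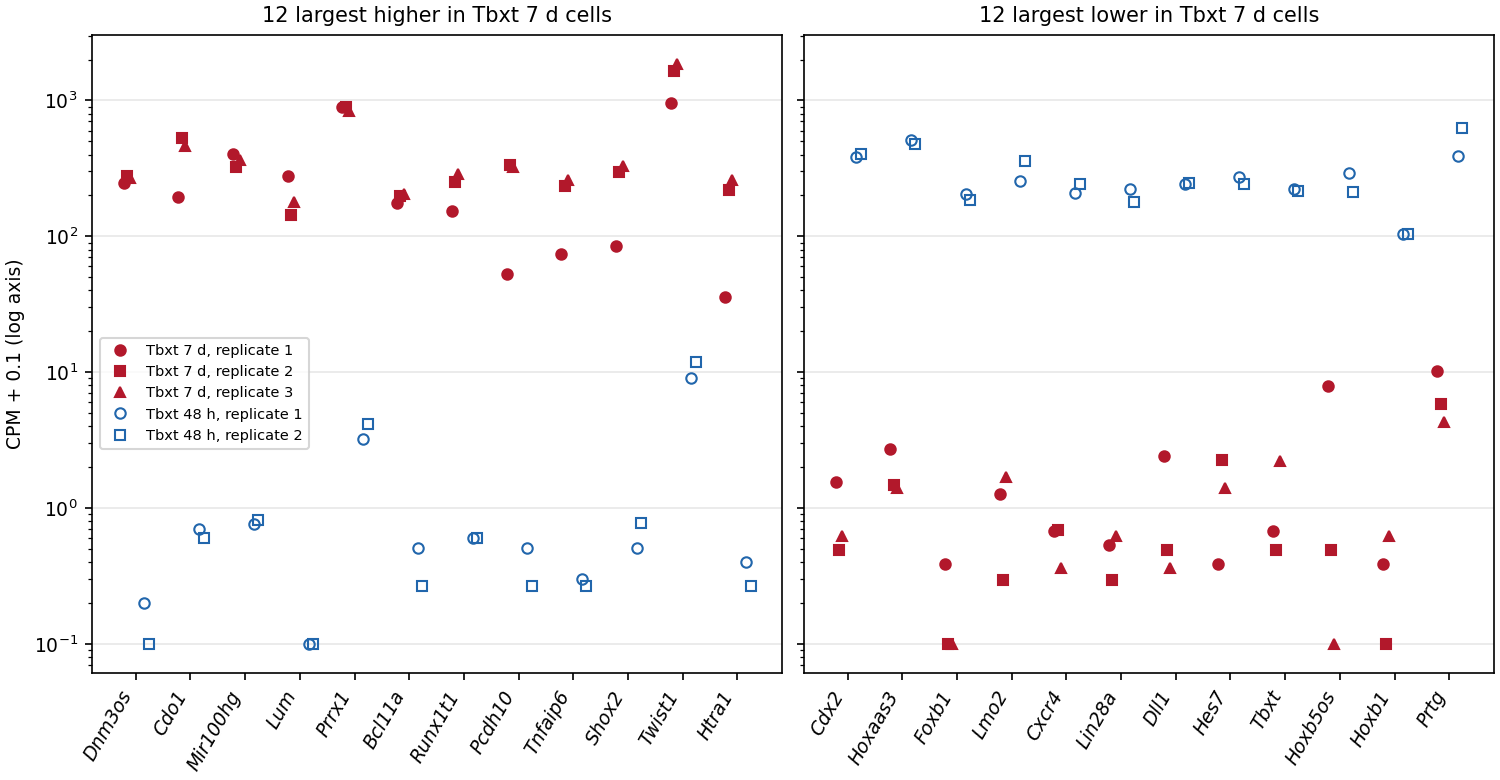
CPM + 0.1 on a log axis in each of the 5 libraries for the 12 genes with the largest change in each direction; filled red symbols are Tbxt 7 d libraries and open blue symbols Tbxt 48 h libraries. The groups do not overlap for any of the 24 genes, and Tbxt 7 d replicate 1 (filled circle) lies well below replicates 2 and 3 for Cdo1, Pcdh10, Tnfaip6, Shox2 and Htra1.

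Genes of the caudal epiblast and tail bud, the growth zone that feeds the presomitic mesoderm, fell almost without exception. Of 14 tested members 0 rose and 13 fell, 12 of them past the 2-fold minimum, against 23.5% and 3.91% of all genes, and the median log2 fold change was −5.17 (−5.34 with genes at 0 set to their bound), against 0.09 over all genes. Cdx2, a homeobox factor of the posterior body axis, stood at 1.46, 0.396 and 0.527 CPM in Tbxt 7 d cells and at 384 and 402 CPM in Tbxt 48 h cells, the largest fall of the named genes (−7.83 ± 0.20, adjusted p = 4.2e-11). All 3 Tbxt 7 d libraries were thus near or below the floor and both Tbxt 48 h libraries far above it. Its paralog Cdx1 stood at 0.582, 0 and 0.79 CPM in Tbxt 7 d cells and at 68 and 80.8 CPM in Tbxt 48 h cells (−5.73 ± 0.36). Wnt3a, a WNT ligand of the tail bud, was at 0 in all Tbxt 7 d libraries and at 40.5 and 26.2 CPM in Tbxt 48 h libraries, so that it was at least 44.3-fold lower. Cyp26a1, the enzyme gene that clears retinoic acid from the tail bud, was also at 0 in all Tbxt 7 d libraries, against 67 and 61.3 CPM in Tbxt 48 h libraries (at least 85.2-fold lower). Fgf8 (−5.86 ± 0.39) and Fgf17 (−4.13 ± 0.35), FGF ligand genes of the tail bud, and Sp8 (−5.87 ± 0.28), a zinc finger factor gene, fell as well. Wnt8a, a further WNT ligand gene, was at or under the floor in every one of the 5 libraries and at 12.9 CPM in NMPs.

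Levels in NMPs place these genes on 3 stages, with no test of the first step. Cdx1 averaged 492 CPM in NMPs, 74.4 CPM in Tbxt 48 h cells and 0.457 CPM in Tbxt 7 d cells. Cdx2 averaged 630 CPM in NMPs, 393 CPM in Tbxt 48 h cells and 0.793 CPM in Tbxt 7 d cells. Cyp26a1 followed another course, with 24.2 CPM in NMPs, 64.1 CPM in Tbxt 48 h cells and 0 CPM at 7 d.

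Presomitic mesoderm genes fell in most of their tested members. Of 11 tested members of the list, 1 rose and 8 fell, and the same numbers passed the 2-fold minimum, with a median log2 fold change of −4.13; without Tbxt 7 d replicate 1, 2 rose and 8 fell. Hes7, the repressor gene at the core of the segmentation clock, stood at 0.291, 2.18 and 1.32 CPM in Tbxt 7 d cells and at 272 and 242 CPM in Tbxt 48 h cells (−6.93 ± 0.30, adjusted p = 7.13e-09). Dll1, a Notch ligand gene, stood at 2.33, 0.396 and 0.263 CPM in Tbxt 7 d cells and at 242 and 245 CPM in Tbxt 48 h cells (−7.08 ± 0.44, adjusted p = 1.43e-07). For both genes every Tbxt 7 d library was far below both Tbxt 48 h libraries. Tbx6, the T-box factor gene that commits cells to paraxial mesoderm, had 3 reads in all in Tbxt 7 d cells and levels of 119 and 57.9 CPM in Tbxt 48 h cells, a ratio of 393.5 (95% exact counting interval 134 to 1910). Dll3 (−5.93 ± 0.41), a Notch ligand-like gene of the presomitic mesoderm, Cited1 (−6.05 ± 0.33), a transcriptional coregulator gene, and Rspo3 (−4.05 ± 0.31), an enhancer of WNT signalling, fell too. Snai1, a repressor of epithelial genes, stood at 69, 91.9 and 99 CPM in Tbxt 7 d cells and at 109 and 87.1 CPM in Tbxt 48 h cells, with overlapping groups (−0.18 ± 0.25, adjusted p = 0.566). Fgf18, the member that rose (2.63), and Msgn1, which missed the filter at 0 CPM in Tbxt 7 d libraries and 6.48 and 3.71 CPM in Tbxt 48 h libraries, were singled out after their values were seen.

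The wider Notch pathway fell in most of its members. Of its 14 tested members 2 rose and 9 fell, and 0 and 7 passed the 2-fold minimum. Notch1, a receptor gene, stood at 13.4, 10.1 and 9.74 CPM in Tbxt 7 d cells and at 139 and 127 CPM in Tbxt 48 h cells (−3.49 ± 0.25, adjusted p = 2.79e-07). Notch3, the receptor gene of mural cells, went the other way, with 50.7, 41.2 and 52.7 CPM in Tbxt 7 d cells and 18.9 and 15.9 CPM in Tbxt 48 h cells (1.42 ± 0.20, adjusted p = 7.21e-05). Nrarp, a feedback inhibitor gene of Notch, fell (−5.87 ± 0.34), and the target gene Hes5 was at 0 in all Tbxt 7 d libraries and at 6.99 and 5.91 CPM in Tbxt 48 h libraries (at least 8.57-fold lower). The target gene Hes1 did not pass, with 328, 86.7 and 100 CPM in Tbxt 7 d cells and 116 and 86.7 CPM in Tbxt 48 h cells (0.50 ± 0.45, adjusted p = 0.379).

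The promoters of 2 clock genes are printed because Notch acts on them through the DNA-binding factor RBPJ, whose core motif GTGGGAA was searched on both strands. Each window runs from 250 bases before to 50 after the gene's start, read 5′ to 3′ along the gene from RefSeq on GRCm38.p6, and capitals mark GTGGGAA or its reverse complement TTCCCAC. Hes7 lies at chr11:69120203-69120502 on the plus strand and Lfng, the glycosyltransferase gene that modulates Notch in the clock, at chr5:140607091-140607390 on the plus strand.
Hes7: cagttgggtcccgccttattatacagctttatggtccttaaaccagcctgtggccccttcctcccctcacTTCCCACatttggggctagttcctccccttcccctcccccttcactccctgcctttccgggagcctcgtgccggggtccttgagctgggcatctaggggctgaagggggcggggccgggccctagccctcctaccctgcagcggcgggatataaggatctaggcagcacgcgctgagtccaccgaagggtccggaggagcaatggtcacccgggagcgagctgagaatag
Lfng: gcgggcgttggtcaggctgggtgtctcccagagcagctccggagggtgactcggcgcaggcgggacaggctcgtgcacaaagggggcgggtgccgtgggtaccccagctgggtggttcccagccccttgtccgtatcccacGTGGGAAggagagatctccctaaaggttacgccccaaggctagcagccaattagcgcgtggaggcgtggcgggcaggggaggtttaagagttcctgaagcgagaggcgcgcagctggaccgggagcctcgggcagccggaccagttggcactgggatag
The motif stood in 6.38% of all 32851 windows and in 5 of the 25 windows of presomitic and Notch list genes, those of Hes5, Hes7, Hey2, Lfng and Msgn1, where 22 of 28 listed genes had a window. A match is a description of letters and not a bound site. Lfng, named after its values were seen, stood at 3.49, 2.38 and 3.16 CPM in Tbxt 7 d cells and at 24 and 17.9 CPM in Tbxt 48 h cells (−2.45 ± 0.28). Hey2, a Notch target gene with the motif, missed the threshold at −0.93 ± 0.40 (adjusted p = 0.0677).

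Among genes of pluripotency and the early epiblast, those still well detected at 48 h fell. Lin28a, the RNA-binding protein that blocks maturation of let-7 miRNAs, stood at 0.437, 0.198 and 0.527 CPM in Tbxt 7 d cells and at 224 and 179 CPM in Tbxt 48 h cells (−7.19 ± 0.15, adjusted p = 1.15e-11). Trim71, a let-7 target gene that keeps stem cells dividing, fell (−4.91 ± 0.31), as did Dnmt3b, a de novo DNA methyltransferase gene (−2.39 ± 0.25), and Sall4, a zinc finger factor gene (−4.74 ± 0.69). Lin28b, looked at for its kinship with Lin28a after its values were seen, fell as well (−2.30 ± 0.39). Pou5f1, the gene of OCT4, was at 0.728, 0.495 and 2.11 CPM in Tbxt 7 d cells and at 0.658 and 0.675 CPM in Tbxt 48 h cells, against 123 CPM in NMPs. Klf4, listed among pluripotency genes and also a factor of differentiated mesenchyme, was the member that rose, with 97.3, 26.2 and 52.6 CPM in Tbxt 7 d cells and 4.49 and 7.85 CPM in Tbxt 48 h cells (2.91 ± 0.43). In all, 1 of 17 members rose and 6 fell, with 1 and 5 past the 2-fold minimum, and the median log2 fold change was −0.07.

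The transcripts that host several mesenchymal miRNAs were among the largest rises. Dnm3os, a long noncoding RNA, stood at 248, 276 and 268 CPM in Tbxt 7 d cells, while Tbxt 48 h cells held 1 read of it in all (0.101 and 0 CPM), a ratio of 4202 with a 95% exact counting interval of 754 to 166027. Mir100hg, the host transcript of a second miRNA cluster, stood at 401, 326 and 364 CPM in Tbxt 7 d cells and at 0.658 and 0.717 CPM in Tbxt 48 h cells (7.75 ± 0.33, adjusted p = 7.13e-09). Neither gene showed any overlap between groups, and replicate 1 was level with replicates 2 and 3 for both. By RefSeq coordinates on GRCm38.p6, Dnm3os (chr1:162217623-162225550) holds Mir199a-2 and Mir214, and Mir100hg (chr9:41376526-41615185) holds Mir100, Mirlet7a-2 and Mir125b-1. The mature miRNAs themselves were not measured, since the libraries were primed on poly-A tails. Their sequences are shown because the hosts mark the change, with the seed, bases 2 to 8, in capitals.
miR-199a-5p: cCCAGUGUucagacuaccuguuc
miR-199a-3p: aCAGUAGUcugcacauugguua
miR-214-3p: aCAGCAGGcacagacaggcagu
miR-100-5p: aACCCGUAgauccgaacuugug
miR-125b-5p: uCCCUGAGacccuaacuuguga
let-7a-5p: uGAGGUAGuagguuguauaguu
The first 3 lie at chr1:162217844-162217866, chr1:162217883-162217904 and chr1:162223438-162223459, and miR-100-5p and miR-125b-5p at chr9:41531437-41531458 and chr9:41581940-41581961, all on the plus strand. The let-7a-5p letters were taken from the RefSeq entry of Mirlet7a-1 at chr13:48538239-48538260 on the minus strand. No seed is shared among the 6. Further hosts were looked up after their values were seen. Mir99ahg stood at 68.1, 67.2 and 73.7 CPM in Tbxt 7 d cells and at 0.506 and 0.338 CPM in Tbxt 48 h cells, and Mir181a-1hg rose by 5.49 on the log2 scale. Mir17hg, the host of a miRNA cluster of proliferating cells, fell to 18.6, 18.7 and 13.7 CPM in Tbxt 7 d cells, against 58.2 and 69.3 CPM in Tbxt 48 h cells (−1.85 ± 0.18).

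Transcription factors of mesenchyme rose as a group. Of 17 tested members 12 rose, all 12 past the 2-fold minimum, and 0 fell, with a median log2 fold change of 3.82. Prrx1, a homeobox factor of limb and craniofacial mesenchyme, stood at 889, 895 and 832 CPM in Tbxt 7 d cells and at 3.14 and 4.05 CPM in Tbxt 48 h cells (7.58 ± 0.62, adjusted p = 4.83e-06). Twist1, a basic helix-loop-helix factor that promotes the mesenchymal state, stood at 956, 1645 and 1862 CPM in Tbxt 7 d cells and at 9.01 and 11.8 CPM in Tbxt 48 h cells (6.98 ± 0.37, adjusted p = 1.05e-07). The lowest Tbxt 7 d library exceeded the highest Tbxt 48 h library many times over for both. Prrx2 (6.52 ± 0.35), a paralog of Prrx1, and Nfia (5.19 ± 0.34) and Nfix (5.67 ± 0.75), nuclear factor I genes, rose as well. The zinc finger repressor genes Zeb1 and Zeb2, which share the mesenchymal label, did not pass: Zeb1 stood at 60, 29.1 and 33.4 CPM in Tbxt 7 d cells and at 35.6 and 46.7 CPM in Tbxt 48 h cells (−0.07 ± 0.32, adjusted p = 0.874). Zeb2 changed by 0.39 ± 0.23 (adjusted p = 0.175). Without Tbxt 7 d replicate 1 the counts of the list were 12 higher and 1 lower.

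Other regulators among the 12 largest rises were Bcl11a, a zinc finger repressor gene (176, 199 and 206 CPM in Tbxt 7 d cells, against 0.405 and 0.169 CPM in Tbxt 48 h cells), Runx1t1, a transcriptional corepressor gene (154, 250 and 288 CPM, against 0.506 and 0.506 CPM), and Shox2, a homeobox factor of the proximal limb. Shox2 stood at 85, 295 and 329 CPM in Tbxt 7 d cells and at 0.405 and 0.675 CPM in Tbxt 48 h cells (7.05 ± 0.49, adjusted p = 2.48e-07). Cdo1, a cysteine dioxygenase gene, had the second largest fitted change, with 196, 530 and 466 CPM in Tbxt 7 d cells and 0.607 and 0.506 CPM in Tbxt 48 h cells (7.88 ± 0.41). Pcdh10, an adhesion gene of the protocadherin family, stood at 53, 334 and 322 CPM in Tbxt 7 d cells and at 0.405 and 0.169 CPM in Tbxt 48 h cells. Replicate 1 was thus the lowest Tbxt 7 d library for all of these, though far above the Tbxt 48 h level. Tnfaip6, the gene of a hyaluronan-binding protein, stood at 73.7, 233 and 261 CPM in Tbxt 7 d cells and had 3 reads in Tbxt 48 h cells, a ratio of 1039 (95% exact counting interval 355 to 5043). Htra1, a secreted serine protease gene, rose by 6.70 ± 0.66 in the main test and missed the threshold in limma-voom, 1 of the alternatives.

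Factors of the limb and lateral plate rose in 8 of 13 tested members, 7 of them past the 2-fold minimum, and 0 fell. Without Tbxt 7 d replicate 1, 7 rose and 1 fell. Osr1, a zinc finger factor of lateral and intermediate mesoderm, stood at 37.3, 67.5 and 87.7 CPM in Tbxt 7 d cells and at 0.506 and 0.338 CPM in Tbxt 48 h cells (5.44 ± 0.49, adjusted p = 1.88e-06). Hand2, a basic helix-loop-helix factor of heart and posterior limb, stood at 44, 75.8 and 71.6 CPM in Tbxt 7 d cells and at 1.62 and 2.87 CPM in Tbxt 48 h cells (4.31 ± 0.34). Tbx2 (4.59 ± 0.61), Tbx3 (3.61 ± 0.46), T-box repressor genes, and Lmx1b (4.13 ± 0.34), a dorsal limb factor gene, rose. The limb identity genes Tbx5 and Tbx4 were below the filter, with Tbx5 at 2.62, 1.39 and 1.32 CPM in Tbxt 7 d cells and at 0 in both Tbxt 48 h libraries. Msx1, a homeobox gene of limb bud mesenchyme, stood at 605, 107 and 65.3 CPM in Tbxt 7 d cells and at 48.8 and 50.1 CPM in Tbxt 48 h cells. All 3 Tbxt 7 d libraries were higher, but their spread left it short of the threshold (1.69 ± 0.79, adjusted p = 0.1).

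Paraxial identities beyond the presomitic state moved in both directions. Of 10 tested somite and sclerotome genes 5 rose and 3 fell, with 4 and 2 past the 2-fold minimum, and 5 fell without Tbxt 7 d replicate 1, while limma-voom gave 3 and 5. Cdh11, the mesenchymal cadherin gene, stood at 1211, 886 and 888 CPM in Tbxt 7 d cells and at 8.71 and 11.9 CPM in Tbxt 48 h cells (6.46 ± 0.32, adjusted p = 2.95e-08). Pax9, a sclerotome factor gene, stood at 18.3, 13.3 and 16.1 CPM in Tbxt 7 d cells and at 0.405 and 0.338 CPM in Tbxt 48 h cells (3.61 ± 0.28). Meox2, a somite homeobox factor, stood at 7.57, 31.7 and 74.8 CPM in Tbxt 7 d cells and had 3 reads in Tbxt 48 h cells, a ratio of 202 (95% exact counting interval 68.6 to 981), and it missed the threshold in limma-voom. Foxc1, a forkhead factor of paraxial mesoderm, fell to 19.5, 0.594 and 0.527 CPM in Tbxt 7 d cells, against 118 and 132 CPM in Tbxt 48 h cells (−5.10 ± 0.94, adjusted p = 0.00135). Pax3, a dermomyotome factor gene, stood at 18.3, 0 and 0.79 CPM in Tbxt 7 d cells and at 10 and 11.3 CPM in Tbxt 48 h cells. It did not pass with all libraries (−1.84 ± 0.99, adjusted p = 0.147) and fell without replicate 1 (−3.12 ± 0.30, adjusted p = 1.66e-06). The muscle-determining genes Myf5 and Myog were at 0 in all 5 libraries, and the dermomyotome and muscle list held 0 higher and 3 lower of 8 tested (0 and 5 without replicate 1).

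Of the markers of mature mesenchymal derivatives, 8 of 16 cartilage and bone genes and 4 of 8 tendon genes passed the filter. Runx2, the factor gene that starts bone formation, rose, with 120, 92.3 and 87.6 CPM in Tbxt 7 d cells and 3 reads in Tbxt 48 h cells, a ratio of 519 (95% exact counting interval 177 to 2518). Col2a1, the cartilage collagen gene, rose, with 28.2, 27.3 and 23.4 CPM in Tbxt 7 d cells and 7.80 and 4.56 CPM in Tbxt 48 h cells (1.96 ± 0.24, adjusted p = 2.08e-05). Acan, the cartilage proteoglycan gene, was at 0 in all 5 libraries, and Sp7, which acts after Runx2 in bone, was at most 0.594 CPM in Tbxt 7 d cells. Sox9, the cartilage factor gene, stood at 109, 23 and 11.9 CPM in Tbxt 7 d cells and at 6.78 and 7.76 CPM in Tbxt 48 h cells (1.97 ± 0.71, adjusted p = 0.039). Its call was lost under 9 of the 17 alternative settings, and without replicate 1 its change was 1.09. Of 8 tested cartilage and bone genes 4 rose and 1 fell, with 2 and 1 past the 2-fold minimum, and 3 rose and 2 fell without replicate 1. Kera, the keratocan gene of tendon and cornea, was at 2.91, 22.2 and 24.8 CPM in Tbxt 7 d libraries and at 0 in both Tbxt 48 h libraries (at least 41-fold higher), the 1 gene that rose among 4 tested tendon genes. Without Tbxt 7 d replicate 3 the list held 0 calls, and without replicate 1 it held 1 in each direction. Only Notch3 of the 9 fat and pericyte genes passed the filter. Among 6 tested intermediate mesoderm and nephron genes, 2 rose (30.7% of all genes did) and 2 fell (23.5% of all genes), and 1 and 1 without Tbxt 7 d replicate 2 or 3. One of them was Six2, the nephron progenitor factor gene, with 1.46, 35.2 and 94.7 CPM in Tbxt 7 d cells and 0.709 and 0.169 CPM in Tbxt 48 h cells. Replicate 1 was near the floor, and the call (3.85 ± 1.14, adjusted p = 0.0153) was lost without either Tbxt 48 h library.

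**Figure D2:**
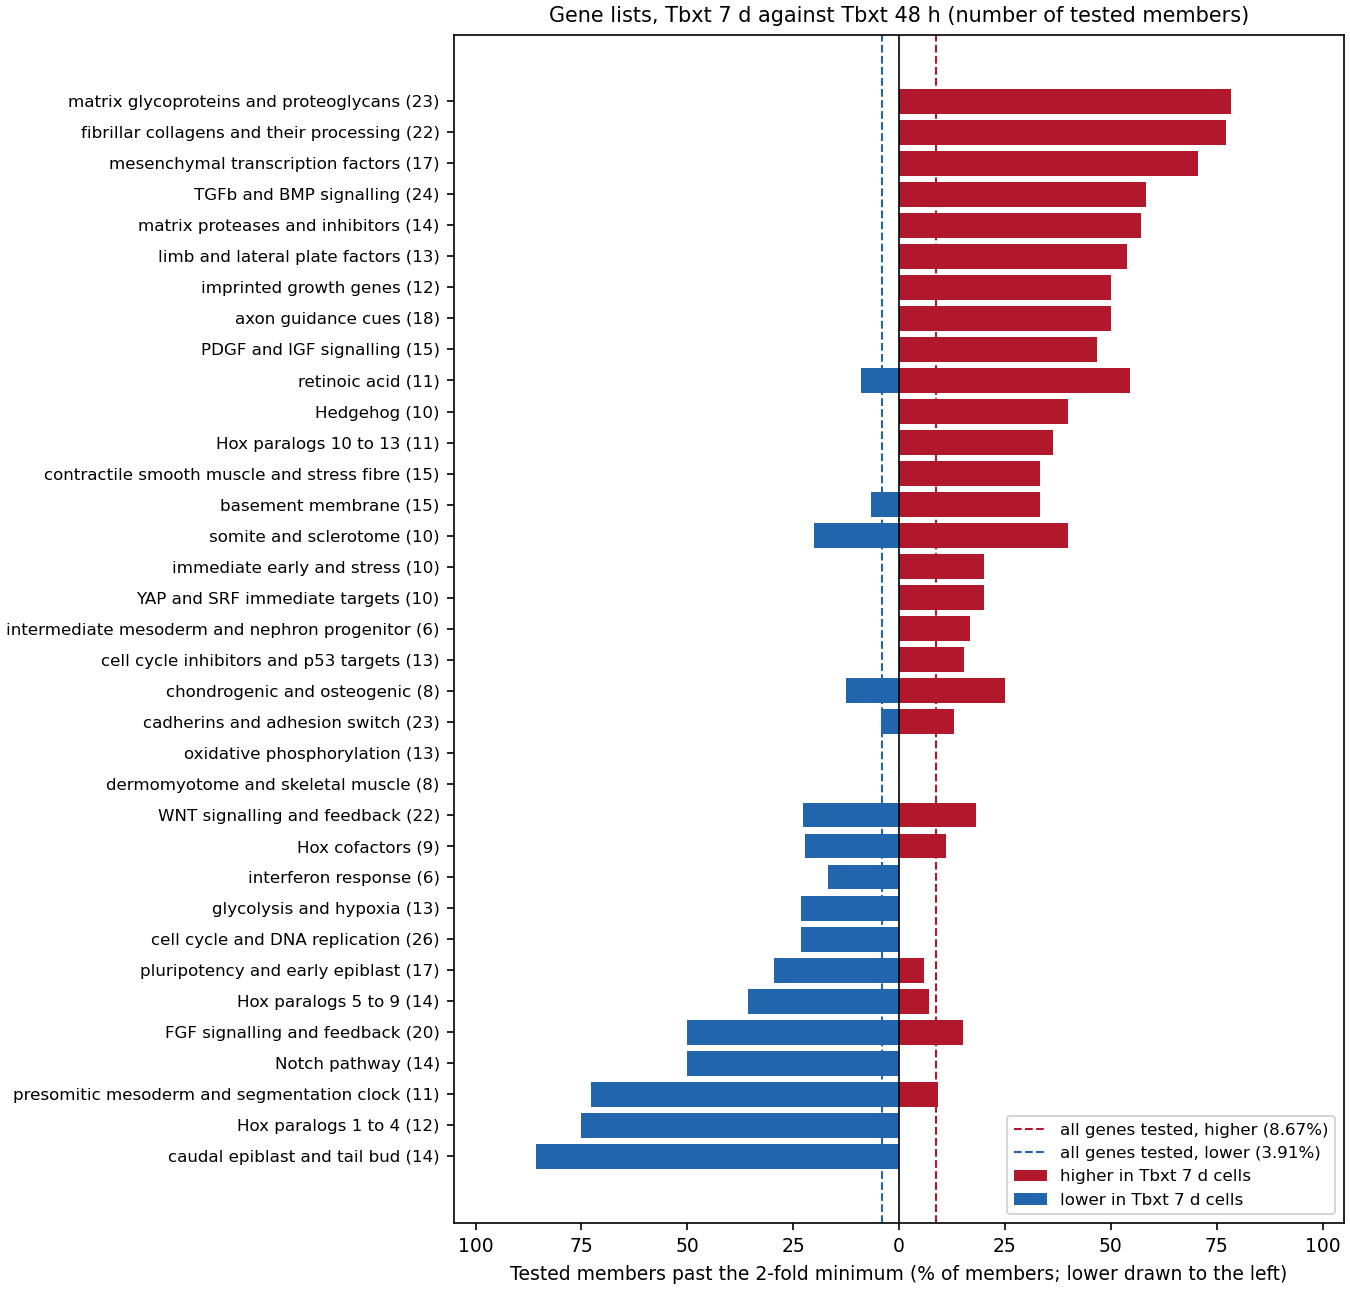
Share of tested members past the 2-fold minimum, in percent, for each gene list with at least 6 tested members (number in brackets); red bars to the right are members higher in Tbxt 7 d cells, blue bars to the left members lower, and dashed lines mark all genes tested (8.67% higher, 3.91% lower). Matrix and mesenchymal lists stand at the top, and caudal epiblast, Hox paralogs 1 to 4 and presomitic genes at the bottom.

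The extracellular matrix genes rose nearly as a whole. Of 22 tested genes of fibrillar collagens and their processing 20 rose, 17 past the 2-fold minimum, and 0 fell (median 3.69). Of 23 tested glycoproteins and proteoglycans 21 rose, 18 past the 2-fold minimum, and 0 fell (median 3.81, or 3.83 with genes at 0 set to their bound). Lum, the gene of lumican, a proteoglycan that spaces collagen fibrils, was at 279, 143 and 179 CPM in Tbxt 7 d cells and at 0 in both Tbxt 48 h libraries (at least 494-fold higher). Col3a1, a fibrillar collagen gene, stood at 3023, 3155 and 3599 CPM in Tbxt 7 d cells and at 84.5 and 102 CPM in Tbxt 48 h cells (5.12 ± 0.41, adjusted p = 2.86e-06). Its Tbxt 7 d libraries were close together and all far above both Tbxt 48 h libraries. Col1a2, a chain of the main collagen of bone and skin, stood at 1053, 369 and 685 CPM in Tbxt 7 d cells and at 15.4 and 10.8 CPM in Tbxt 48 h cells (5.53 ± 0.61). The 3 chains of the beaded collagen, Col6a1 (6.13 ± 0.61), Col6a2 (4.91 ± 0.40) and Col6a3 (6.06 ± 0.40), rose together. Dcn (6.34 ± 0.32), a small proteoglycan gene, Mfap2 (6.34 ± 0.37), a microfibril gene, Fbln5 (5.37 ± 0.40), an elastic fibre gene, and Tnc (6.14 ± 0.27), a matrix glycoprotein gene of developing mesenchyme, rose. Fn1, the fibronectin gene, stood at 903, 630 and 719 CPM in Tbxt 7 d cells and at 386 and 402 CPM in Tbxt 48 h cells, without overlap but short of the threshold (0.91 ± 0.52, adjusted p = 0.17). Vcan, the versican gene, also started high and changed by 0.34 ± 0.30 (adjusted p = 0.358).

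The basement membrane list was mixed. Of 15 tested basement membrane genes 7 rose and 3 fell, with 5 and 1 past the 2-fold minimum and a median of 0.46. Nid1, a linker protein gene of basement membranes, stood at 131, 123 and 140 CPM in Tbxt 7 d cells and at 2.23 and 2.53 CPM in Tbxt 48 h cells (5.29 ± 0.25), and the collagen genes Col4a1 (2.21 ± 0.23) and Col4a2 (2.29 ± 0.21) rose. Its paralog Nid2 stood at 74.5, 140 and 131 CPM in Tbxt 7 d cells and at 98.1 and 123 CPM in Tbxt 48 h cells, with overlapping groups (0.02 ± 0.24, adjusted p = 0.961). Lama5, a laminin chain gene of epithelia, fell to 2.04, 0.198 and 0 CPM in Tbxt 7 d cells, against 13 and 10.3 CPM in Tbxt 48 h cells (−3.03 ± 0.41). Lama2, the laminin chain gene of muscle and nerve sheaths, rose, with 15.6, 6.04 and 9.35 CPM in Tbxt 7 d cells and 3 reads in Tbxt 48 h cells, a ratio of 51.0 (95% exact counting interval 17.0 to 251). Enzymes that remodel the matrix rose in 13 of 14 tested members, 8 past the 2-fold minimum. Among them were Mmp11 (5.27 ± 0.50) and Mmp14 (3.14 ± 0.23), metalloproteinase genes, their inhibitor gene Timp2 (2.76 ± 0.27), and Serpinf1 (3.91 ± 0.40), a secreted serpin gene.

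Contractile genes of smooth muscle and stress fibres rose more often than they fell. Of 15 tested members 9 rose and 1 fell, with 5 and 0 past the 2-fold minimum, and 8 rose and 4 fell without Tbxt 7 d replicate 1. Vim, the intermediate filament gene of mesenchyme, stood at 1466, 1880 and 1740 CPM in Tbxt 7 d cells and at 417 and 353 CPM in Tbxt 48 h cells (2.13 ± 0.26), and Cnn2, a calponin gene, rose by 3.70 ± 0.40. Itga1, a collagen receptor subunit gene, fell (−2.37 ± 0.49), while its relative Itga8 rose (3.40 ± 0.35). Acta2, the smooth muscle actin gene, stood at 132, 7.57 and 12.2 CPM in Tbxt 7 d cells and at 87.6 and 66.2 CPM in Tbxt 48 h cells. Replicate 1 was above and replicates 2 and 3 below both Tbxt 48 h libraries, so that the gene did not pass with all libraries (−1.64 ± 0.98, adjusted p = 0.186) and fell without replicate 1 (−2.86 ± 0.41, adjusted p = 0.000127). Tpm1, a tropomyosin gene, behaved alike, with −1.31 ± 0.59 (adjusted p = 0.0874) with all libraries and −2.08 ± 0.18 (adjusted p = 5.26e-07) without replicate 1. The YAP and SRF list holds targets and regulators, genes read as a sign of tension on the cytoskeleton. Of its 10 tested genes 3 rose (30.7% of all genes did) and 1 fell (23.5% of all genes), with 2 and 0 past the 2-fold minimum. The counts were 7 and 1 without Tbxt 7 d replicate 2, 5 and 1 without replicate 3, and 3 and 0 without Tbxt 48 h replicate 1. The risers were Axl (3.53 ± 0.48), a receptor tyrosine kinase gene, Vgll3 (3.43 ± 0.51), a TEAD cofactor gene, and Tead1 (1.32 ± 0.19), the gene of a DNA-binding partner of YAP. The YAP target genes Ccn1 and Ccn2, named after their values were seen, were far higher in Tbxt 7 d replicate 1 than in the other libraries. Ccn1 stood at 177, 17.3 and 17.1 CPM in Tbxt 7 d cells and at 17.4 and 13 CPM in Tbxt 48 h cells. Ccn2 stood at 24.5, 1.58 and 4.74 CPM in Tbxt 7 d cells and at 2.94 and 3.38 CPM in Tbxt 48 h cells.

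Of the TGFb and BMP pathway genes 17 of 24 tested rose, 14 past the 2-fold minimum, and 0 fell (median 2.35). Without Tbxt 7 d replicate 1, 17 rose and 1 fell. Among the ligands, Bmp4 stood at 143, 148 and 82.7 CPM in Tbxt 7 d cells and at 6.48 and 7.43 CPM in Tbxt 48 h cells (3.94 ± 0.31, adjusted p = 6.67e-07). Tgfb2 stood at 178, 917 and 1077 CPM in Tbxt 7 d cells and at 30.2 and 23.6 CPM in Tbxt 48 h cells (4.34 ± 0.62), with replicate 1 between the other Tbxt 7 d libraries and the Tbxt 48 h level. Tgfb3 rose (3.95 ± 0.32). The type I receptor gene Tgfbr1 changed by 0.01 ± 0.21 (adjusted p = 0.978). Among targets, Tgfbi, a TGFb-induced matrix protein gene, rose (5.65 ± 0.36). Bambi, a pseudoreceptor gene that dampens both pathways, did not pass (0.51 ± 0.33, adjusted p = 0.205). The BMP target genes Id1 (3.57 ± 0.26), Id2 (3.33 ± 0.17) and Id3 (3.59 ± 0.23), named after their values were seen, rose alike.

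PDGF and IGF genes rose in 9 of 15 tested members and fell in 1, with 7 and 0 past the 2-fold minimum. The mesenchymal receptor genes Pdgfra and Pdgfrb both rose: Pdgfra stood at 131, 86.1 and 140 CPM in Tbxt 7 d cells and at 5.06 and 3.38 CPM in Tbxt 48 h cells (4.51 ± 0.35). Pdgfrb stood at 143, 122 and 142 CPM in Tbxt 7 d cells and at 10.1 and 7.76 CPM in Tbxt 48 h cells (3.79 ± 0.27). Igfbp4, an IGF-binding protein gene, rose by 4.01 ± 0.17, and Gas1, a coreceptor gene for hedgehog ligands that also restrains growth, by 4.37 ± 0.16. Igf2, the fetal growth factor gene, stood at 967, 3090.1 and 3220.3 CPM in Tbxt 7 d cells and at 1665 and 1659 CPM in Tbxt 48 h cells. It did not pass with all libraries (0.36 ± 0.45, adjusted p = 0.539) and rose without replicate 1, which lay below the Tbxt 48 h level (0.92 ± 0.20, adjusted p = 0.00131).

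FGF pathway genes fell more often than they rose, in a medium that held FGF throughout. Of 20 tested members 4 rose and 13 fell, and 3 and 10 passed the 2-fold minimum (median −2.68). Of 8 tested ligand genes 6 fell, and Fgf18 and Fgf10 rose. Fgf10, a ligand gene of limb mesenchyme, stood at 17.5, 4.75 and 5.14 CPM in Tbxt 7 d cells and had 2 reads in Tbxt 48 h cells, a ratio of 66.3 (95% exact counting interval 17.9 to 554, adjusted p = 0.000169 in limma). Fgf9 stood at 7.86, 0 and 1.84 CPM in Tbxt 7 d cells and at 59.7 and 73.8 CPM in Tbxt 48 h cells (−4.52 ± 0.64). Fgf15 was at 0 in all Tbxt 7 d libraries, against 23.4 and 16.5 CPM in Tbxt 48 h libraries (at least 26.5-fold lower). The receptor gene Fgfr2 rose, with 102, 118 and 107 CPM in Tbxt 7 d cells and 4.66 and 5.91 CPM in Tbxt 48 h cells (4.13 ± 0.25, adjusted p = 7.22e-08). Feedback genes that report ERK signalling differed between the Tbxt 7 d libraries. Dusp6, an ERK phosphatase gene named after its values were seen, stood at 104, 5.94 and 4.74 CPM in Tbxt 7 d cells and at 163 and 237 CPM in Tbxt 48 h cells (−3.62 ± 1.01, adjusted p = 0.0135, and −4.97 without replicate 1). Spry1, an inhibitor of receptor tyrosine kinases, stood at 47.2, 1.58 and 1.05 CPM in Tbxt 7 d cells and at 9.92 and 10.6 CPM in Tbxt 48 h cells. It did not pass with all libraries (−0.83 ± 1.10, adjusted p = 0.556) and fell without replicate 1 (−2.29 ± 0.26, adjusted p = 6.32e-06).

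WNT pathway genes moved in both directions. Of 22 tested members 6 rose and 8 fell, where 30.7% of all genes rose and 23.5% fell. Past the 2-fold minimum were 4 and 5, against 8.67% and 3.91% of all genes. Without replicate 1, 8 of 21 rose and 9 fell. Dkk2, a secreted WNT modulator gene, rose, with 128, 132 and 174 CPM in Tbxt 7 d cells and 0.202 and 0.675 CPM in Tbxt 48 h cells (6.67 ± 0.32, adjusted p = 1.35e-08). Ror1, a receptor gene for noncanonical WNT ligands, rose (4.46 ± 0.31), while Wnt3a and Rspo3 fell as given above. Wnt4, a further ligand gene, rose (3.10 ± 0.33, adjusted p = 6.62e-06). The target gene Sp5 (−2.96 ± 0.58) and the genes of the DNA-binding factors Lef1 (−1.53 ± 0.16) and Tcf7 (−2.11 ± 0.20) fell; these and Wnt4 are named after their values were seen. Axin2, the standard feedback target gene of canonical WNT signalling, stood at 93.5, 556 and 546 CPM in Tbxt 7 d cells and at 153 and 165 CPM in Tbxt 48 h cells. Replicate 1 was below and replicates 2 and 3 were above both Tbxt 48 h libraries. Axin2 did not pass with all libraries (0.94 ± 0.69, adjusted p = 0.281) and rose without replicate 1 (1.79 ± 0.30, adjusted p = 0.000331). Nkd1, a further feedback inhibitor gene, stood at 57.7, 296 and 274 CPM in Tbxt 7 d cells and at 79.9 and 91.8 CPM in Tbxt 48 h cells, with 0.96 ± 0.64 (adjusted p = 0.235) with all libraries and 1.72 ± 0.32 (adjusted p = 0.000568) without replicate 1.

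Retinoic acid genes rose in 9 of 11 tested members, 6 past the 2-fold minimum, and 1 fell. Beside the fall of Cyp26a1 stood a rise of its paralog Cyp26b1, the degrading enzyme gene of limb mesenchyme, to 23.3, 54.2 and 68.7 CPM in Tbxt 7 d cells, against 1.01 and 1.35 CPM in Tbxt 48 h cells (4.38 ± 0.39, adjusted p = 1.52e-06). The binding protein genes Crabp1 (3.02 ± 0.40) and Crabp2 (2.55 ± 0.43) and the receptor gene Rarb (2.78 ± 0.46) rose. Stra6, a retinol transporter gene, stood at 16, 171 and 184 CPM in Tbxt 7 d cells and at 58.3 and 40 CPM in Tbxt 48 h cells, with 0.73 ± 0.87 (adjusted p = 0.512) with all libraries and 1.86 ± 0.26 (adjusted p = 4.25e-05) without replicate 1. Hedgehog pathway genes rose in 7 of 10 tested members and fell in 2, with 4 and 0 past the 2-fold minimum. Gli2, a transcription factor gene of the pathway, stood at 89.4, 131 and 141 CPM in Tbxt 7 d cells and at 2.43 and 1.35 CPM in Tbxt 48 h cells (5.39 ± 0.24), and the coreceptor genes Cdon (4.22 ± 0.30) and Boc (3.23 ± 0.33) rose. The ligand gene Ihh was at or under the floor in all 5 libraries, and the target gene Gli1 (2.73 ± 0.76, adjusted p = 0.0097) lost its call without Tbxt 48 h replicate 1. Guidance cues and their receptors, which steer axons and migrating cells, rose in 12 of 18 tested members, 9 past the 2-fold minimum, and 1 fell (11 and 3 without replicate 1). Robo2, a receptor gene for Slit cues, stood at 317, 475 and 485 CPM in Tbxt 7 d cells and at 2.73 and 4.3 CPM in Tbxt 48 h cells (6.56 ± 0.30). Sema5a, a semaphorin gene, rose by 6.10 ± 0.36.

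**Figure D3:**
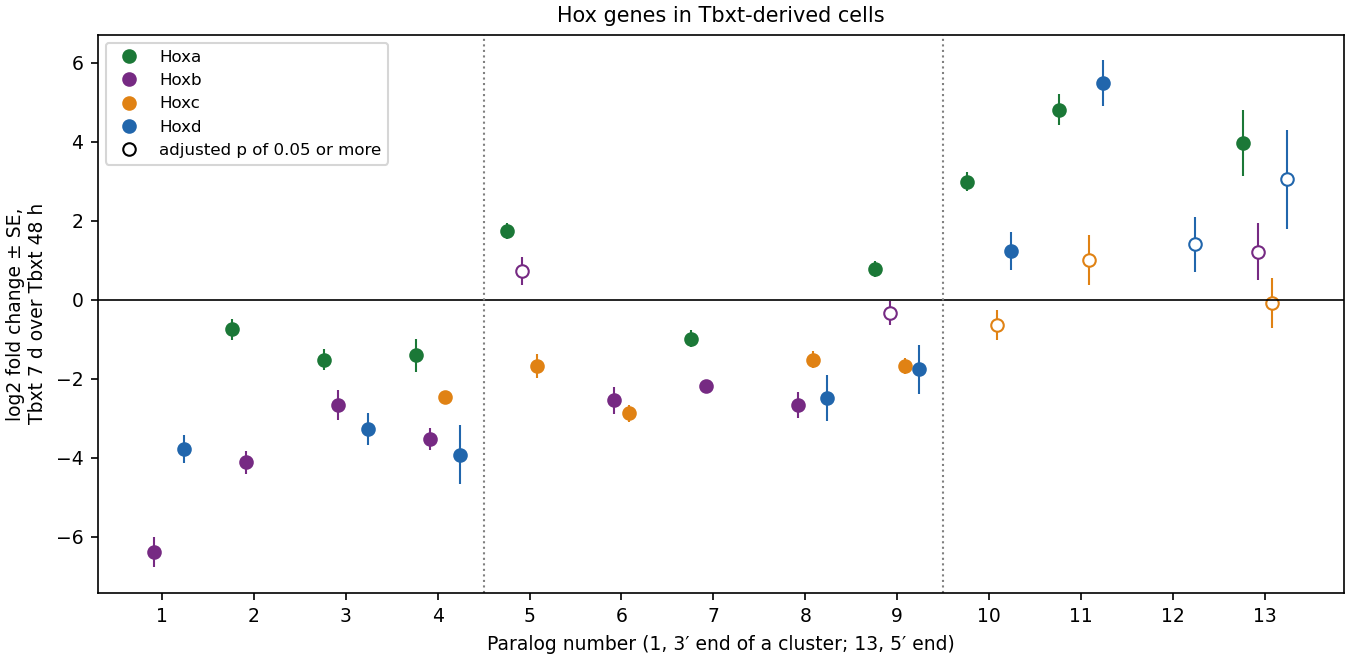
Log2 fold change ± SE, Tbxt 7 d over Tbxt 48 h, of 36 tested Hox genes by paralog number, coloured by cluster; filled points passed the threshold. The 11 genes of paralogs 1 to 4 shown lie below 0, and the 5 genes of paralogs 10 to 13 that passed lie above it.

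Hox genes, whose order along each cluster matches the order of body levels they pattern, moved by paralog number. All 12 tested genes of paralogs 1 to 4 fell, 9 of them past the 2-fold minimum, with a median of −3.40. Hoxb1, the most 3′ gene of its cluster, had 3 reads in all in Tbxt 7 d cells and stood at 104 CPM in each Tbxt 48 h library, a ratio of 427 (95% exact counting interval 146 to 2072). Hoxd1 (−3.78 ± 0.36), Hoxb2 (−4.11 ± 0.29) and Hoxd4 (−3.91 ± 0.74) fell too. Of 14 tested genes of paralogs 5 to 9, 2 rose and 10 fell, 5 of them past the 2-fold minimum. The 2 that rose, Hoxa5 (1.75) and Hoxa9 (0.79), named here after their values were seen, both lie in the A cluster. Of 11 tested genes of paralogs 10 to 13, 5 rose and 0 fell, with a median of 1.41, or 2.99 with the gene at 0 set to its bound, and 8 rose without Tbxt 7 d replicate 3. Hoxa10 stood at 277, 264 and 240 CPM in Tbxt 7 d cells and at 31.2 and 32.4 CPM in Tbxt 48 h cells (2.99 ± 0.25, adjusted p = 9.12e-07). Hoxa11 stood at 35.7, 92.3 and 87 CPM in Tbxt 7 d cells and at 1.62 and 1.18 CPM in Tbxt 48 h cells (4.81 ± 0.39), and Hoxd11 rose by 5.49 ± 0.58. Within these paralogs all 3 tested Hoxa genes, 2 of 4 Hoxd genes, 0 of 3 Hoxc genes and 0 of 1 Hoxb genes rose, and a difference between clusters was not tested. Hoxc10 stood at 50.5, 85.4 and 69 CPM in Tbxt 7 d cells and at 137 and 79.4 CPM in Tbxt 48 h cells, with overlapping groups (−0.64 ± 0.37, adjusted p = 0.175).

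The most 5′ Hox genes were set apart by 1 library. Hoxd13, a gene of digits and genital tissue, stood at 229, 4.55 and 10.3 CPM in Tbxt 7 d cells and at 2.43 and 1.52 CPM in Tbxt 48 h cells, with 3.05 ± 1.25 (adjusted p = 0.0656) with all libraries and 1.43 ± 0.41 (adjusted p = 0.00871) without replicate 1. Hoxa13 stood at 89.4, 5.74 and 8.16 CPM in Tbxt 7 d cells, against 2 reads in Tbxt 48 h cells. The ratio over pooled reads was 236 (95% exact counting interval 64.9 to 1957), with most Tbxt 7 d reads from replicate 1. The log2 fold change of Hoxa13 was 3.97 ± 0.83 with all libraries and 2.79 ± 0.32 without replicate 1, and its call was lost in limma-voom. Hoxd10 (1.25 ± 0.48, adjusted p = 0.0428) lost its call under 13 of the 17 alternative settings, with 0.58 without replicate 1. Among cofactors that bind DNA with Hox proteins, 7 of 9 rose and 2 fell, though 1 and 2 passed the 2-fold minimum. Meis1 rose (2.18 ± 0.22), and Meis3 fell to 9.9, 2.97 and 2.37 CPM in Tbxt 7 d cells, against 44.2 and 36.6 CPM in Tbxt 48 h cells (−2.97 ± 0.41).

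**Figure D4:**
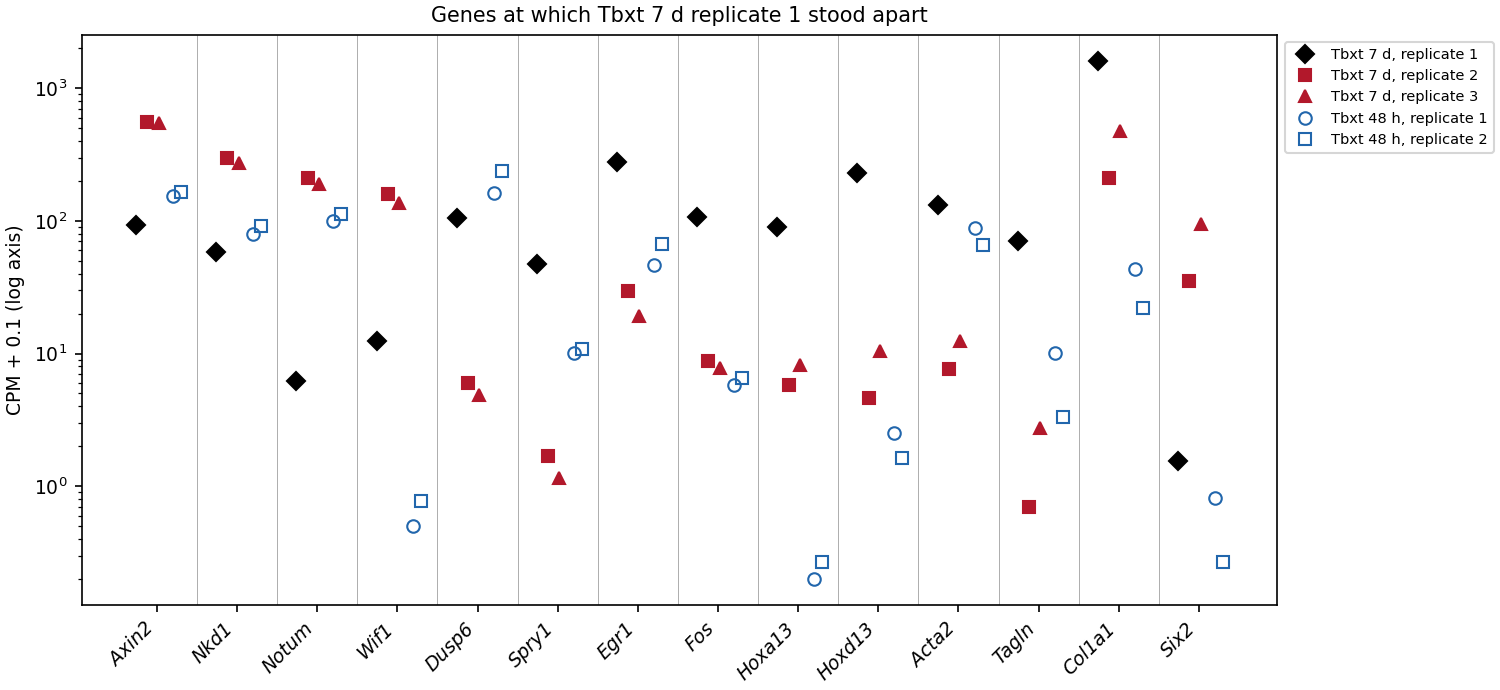
CPM + 0.1 on a log axis in each library for 14 genes chosen after their values were seen, at which Tbxt 7 d replicate 1 (black diamond) lay far from replicates 2 and 3 (red); open blue symbols are Tbxt 48 h libraries. Replicate 1 is lower for Axin2, Nkd1, Notum, Wif1 and Six2 and higher for the other 9 genes.

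Replicate 1 of the Tbxt 7 d cells differed in genes of several pathways. Beside Axin2 and Nkd1, the WNT feedback gene Notum stood at 6.11, 211 and 190 CPM in Tbxt 7 d cells and at 99.9 and 112 CPM in Tbxt 48 h cells. Notum did not pass with all libraries (−0.69 ± 1.19, adjusted p = 0.652) and rose without replicate 1 (0.91 ± 0.16, adjusted p = 0.000224). The secreted WNT inhibitor gene Wif1 stood at 12.2, 159 and 136 CPM in Tbxt 7 d cells and at 0.405 and 0.675 CPM in Tbxt 48 h cells. Replicate 1 was the lowest of the Tbxt 7 d libraries at each of these 4 genes. Replicate 1 was the highest for the immediate early genes Egr1 and Fos. Egr1 stood at 278, 29.3 and 19.2 CPM in Tbxt 7 d cells and at 46.4 and 66.5 CPM in Tbxt 48 h cells. It did not pass with all libraries (−0.03 ± 0.92, adjusted p = 0.985) and fell without replicate 1 (−1.19 ± 0.33, adjusted p = 0.00782). Fos stood at 107, 8.71 and 7.64 CPM in Tbxt 7 d cells and at 5.67 and 6.41 CPM in Tbxt 48 h cells. Replicate 1 was also the highest for Col1a1 and Tagln, though the lowest for Col3a1 and Vim given above. Col1a1, the other chain of the collagen named above, stood at 1610, 210.5 and 476 CPM in Tbxt 7 d cells and at 42.9 and 21.8 CPM in Tbxt 48 h cells (4.11 ± 0.96, and 3.33 ± 0.95 without replicate 1). Tagln, an actin-binding gene of smooth muscle, stood at 70.2, 0.594 and 2.63 CPM in Tbxt 7 d cells and at 10 and 3.21 CPM in Tbxt 48 h cells, not passing with all libraries (0.13 ± 1.29, adjusted p = 0.945). It fell without replicate 1 (−1.50 ± 0.46, adjusted p = 0.0142). These genes were chosen after their values were seen. What set the library apart was not tested, since the labels give no batch, date or culture for it.

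Adhesion and cytoskeletal genes of the epithelial to mesenchymal switch moved in both directions, and most did not pass. Of 23 tested members 6 rose and 2 fell, shares of members below those of all genes. Past the 2-fold minimum were 3 higher and 1 lower, shares above those of all genes (8.67% and 3.91%). With 1 library left out, between 4 and 8 rose and between 1 and 3 fell in the plain test. Quantile normalization gave 6 and 4. Cdh1, the epithelial cadherin gene, lay at or below 0.506 CPM in all 5 libraries. Cdh2, the neural and mesodermal cadherin gene, stood at 102, 87.8 and 97.4 CPM in Tbxt 7 d cells and at 130 and 134 CPM in Tbxt 48 h cells (−0.46 ± 0.19, adjusted p = 0.0536). It fell without Tbxt 7 d replicate 1 (−0.51 ± 0.20, adjusted p = 0.0464). Cdh6, a cadherin gene of mesenchyme and kidney, stood at 116, 105.1 and 76.6 CPM in Tbxt 7 d cells and at 0.81 and 2.19 CPM in Tbxt 48 h cells (5.36 ± 0.30), and Alcam, an immunoglobulin family adhesion gene, rose (3.39 ± 0.32).

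Proliferation genes were lower at 7 d, by modest amounts. Of 26 tested members of the cell cycle and replication list 0 rose and 21 fell, though only 6 passed the 2-fold minimum. Mycn stood at 11.6, 3.37 and 3.69 CPM in Tbxt 7 d cells and at 76.8 and 91 CPM in Tbxt 48 h cells (−3.73 ± 0.38). Myc stood at 10.5, 0.99 and 1.05 CPM in Tbxt 7 d cells and at 54.2 and 108 CPM in Tbxt 48 h cells (−4.43 ± 0.66). Both encode growth-promoting factors. Both groups were apart for each gene, and replicate 1 was the highest Tbxt 7 d library for both. The cyclin genes of S phase entry, Ccne1 (−2.38 ± 0.30) and Ccne2 (−2.68 ± 0.38), and the replication licensing inhibitor gene Gmnn (−1.70 ± 0.14) fell. Ccnd1 stood at 172, 415 and 465 CPM in Tbxt 7 d cells and at 495 and 426 CPM in Tbxt 48 h cells, with overlapping groups (−0.51 ± 0.33, adjusted p = 0.223). Among 13 tested inhibitors and p53 targets 5 rose (30.7% of all genes did) and 4 fell (23.5% of all genes), with 2 and 0 past the 2-fold minimum. Without Tbxt 7 d replicate 1, 5 rose and 5 fell. The cyclin kinase inhibitor gene Cdkn1c stood at 380, 382 and 420 CPM in Tbxt 7 d cells and at 99 and 91.5 CPM in Tbxt 48 h cells (2.04 ± 0.17), and Cdkn2a, which encodes further inhibitors, rose (1.55 ± 0.26).

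The list of imprinted genes, many of them regulators of fetal growth, rose in 10 of 12 tested members, 6 past the 2-fold minimum, and 0 fell (11 and 1 without replicate 1). Phlda2, an imprinted gene outside the list and named after its values were seen, fell (−6.03 ± 0.42). The noncoding RNA Meg3 stood at 1193, 1627 and 1656 CPM in Tbxt 7 d cells and at 94.4 and 140 CPM in Tbxt 48 h cells (3.67 ± 0.23). Dlk1, a growth regulator gene of mesenchyme, stood at 185, 60 and 96.7 CPM in Tbxt 7 d cells and at 5.26 and 5.57 CPM in Tbxt 48 h cells (4.01 ± 0.37). The noncoding RNAs Rian (2.61 ± 0.29) and Mirg (2.89 ± 0.37) of the same imprinted domain rose. Glycolysis and hypoxia genes rose in 4 and fell in 4 of 13, with 0 and 3 past the 2-fold minimum against 8.67% and 3.91% of all genes (2 and 3 calls after quantile normalization). Oxidative phosphorylation genes rose in 1 and fell in 5 of 13 (0 and 3 without Tbxt 48 h replicate 2, 1 and 3 without Tbxt 7 d replicate 3), where 0 oxidative phosphorylation genes passed the 2-fold minimum. The glucose transporter gene Slc2a3 fell to 18.1, 4.75 and 7.11 CPM in Tbxt 7 d cells, against 149 and 120 CPM in Tbxt 48 h cells (−3.81 ± 0.40), and Hk2, a hexokinase gene, fell by 3.14 on the log2 scale. Immediate early and stress genes rose in 4 and fell in 1 of 10 (4 and 3 without Tbxt 7 d replicate 1, and 3 and 0 without Tbxt 48 h replicate 2). Interferon response genes rose in 1 and fell in 2 of 6 (2 and 4 without Tbxt 7 d replicate 1). Past the 2-fold minimum were 2 higher and 0 lower immediate early and stress genes, and 0 and 1 interferon genes. Of all genes 30.7% rose and 23.5% fell in the plain test.

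Markers of other cell types were summed in each library, and their part in the results was not tested. Summed over 12 endothelial genes, levels were 11.6 to 25.5 CPM in Tbxt 7 d cells and 9.62 to 11.3 CPM in Tbxt 48 h cells, with Pecam1 and Cdh5 at most 0.396 CPM in all 5 libraries; 0 of the 2 tested members passed. Of 11 blood genes, 6 were at 0 in all 5 libraries, among them the globin and erythroid genes Hba-a1 and Gata1. Their sum of 15.1 to 137 CPM in Tbxt 7 d cells and 0.844 to 1.42 CPM in Tbxt 48 h cells came almost wholly from Runx1, a factor gene of blood that mesenchyme also uses. Runx1 stood at 14.6, 71.1 and 136 CPM in Tbxt 7 d cells and at 0.911 and 0.506 CPM in Tbxt 48 h cells. Summed epithelial markers were 3.20 to 4.87 CPM in Tbxt 7 d cells and 8.02 to 8.86 CPM in Tbxt 48 h cells. Cardiac markers summed to 0.79 to 1.16 CPM in Tbxt 7 d cells and 2.36 to 2.73 CPM in Tbxt 48 h cells. Endoderm markers summed to 1.98 to 4.37 CPM in Tbxt 7 d cells and 389 to 409 CPM in Tbxt 48 h cells, and the sum in Tbxt 48 h cells was made by Cdx2. Neural progenitor markers summed to 77.2 to 111 CPM in Tbxt 7 d cells and 81.3 to 92.8 CPM in Tbxt 48 h cells, with 1 higher and 3 lower of 9 tested and Sox1 at 0 in all Tbxt 7 d libraries. The member that rose was Irx3, a homeobox factor gene, with 18.9, 74.4 and 102 CPM in Tbxt 7 d cells and 4.66 and 3.71 CPM in Tbxt 48 h cells (3.38 ± 0.53, adjusted p = 0.000308). Neuronal markers summed to 49.2 to 149.5 CPM in Tbxt 7 d cells and 27.5 to 29.8 CPM in Tbxt 48 h cells. Tubb3, the neuronal tubulin gene, was the member that rose, with 23.9, 134 and 91.3 CPM in Tbxt 7 d cells and 5.82 and 3.14 CPM in Tbxt 48 h cells (3.67 ± 0.80, adjusted p = 0.00375). Neural crest markers summed to 18.8 to 25.7 CPM in Tbxt 7 d cells and 42.3 to 48.7 CPM in Tbxt 48 h cells, with Sox10 at or below 0.582 CPM throughout. Pluripotency markers summed to 27.4 to 101.3 CPM in Tbxt 7 d cells and 8.42 to 12.7 CPM in Tbxt 48 h cells, a sum led by Klf4.

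**Figure D5:**
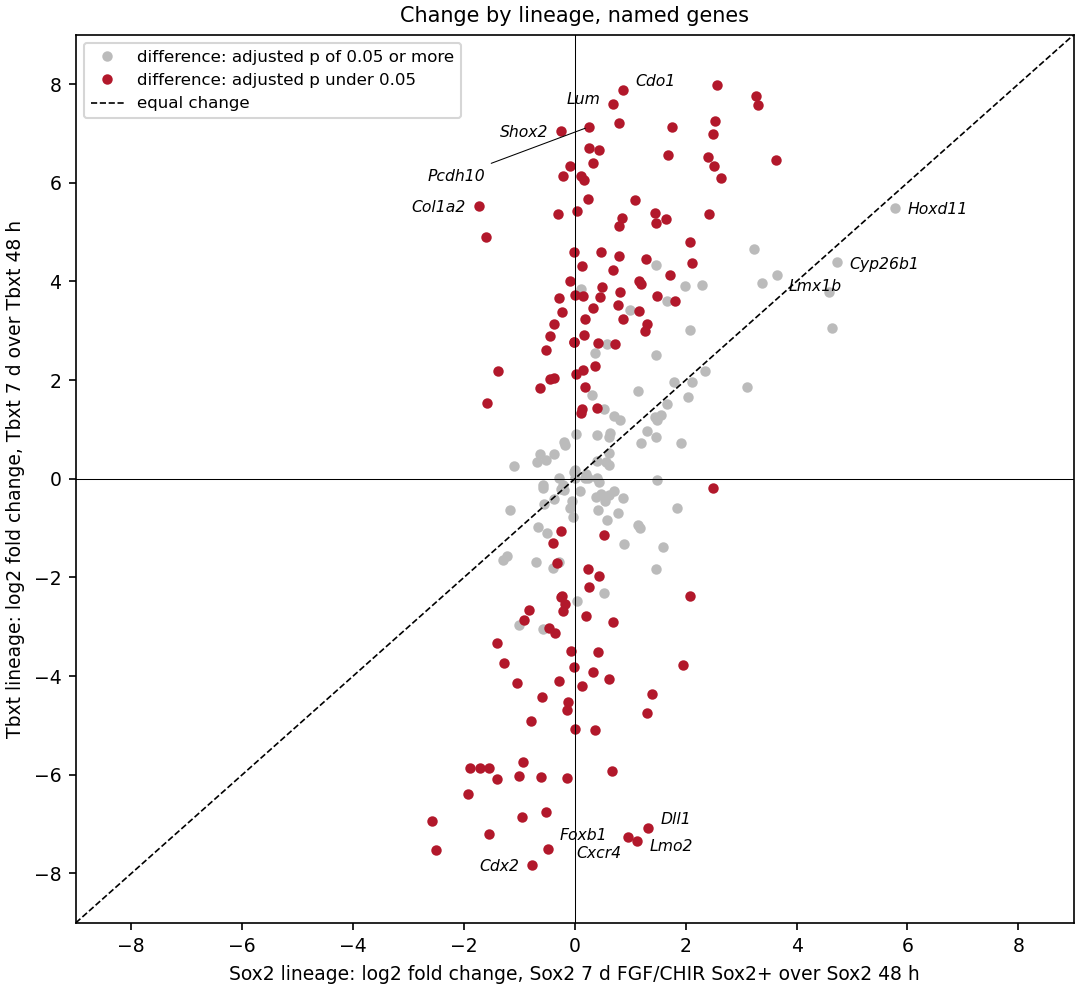
Log2 fold change between 48 h and 7 d in FGF/CHIR for the 239 named genes, in the Tbxt lineage (vertical axis) and in Sox2-derived cells that kept mCherry (horizontal axis, 1 library at 7 d); red points passed the test of the difference. Shox2, Col1a2, Cdo1, Lum and Pcdh10 lie far above the line of equal change, with little or no rise in the Sox2 lineage, and Hoxd11, Cyp26b1 and Lmx1b lie close to the line of equal change.

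Sox2-derived cells kept in the same medium over the same interval gave a second lineage against which these changes were tested. The difference between lineages, the change in the Tbxt lineage minus that in the Sox2 lineage, passed the threshold for 2114 of 12943 genes (16.3%), 999 higher (7.72%) and 1115 lower (8.61%). The Sox2-derived cells at 7 d were 1 library, so its spread was taken from the replicated groups, and that library cannot be told apart from its group; no sample is shared between the lineages. Without Tbxt 48 h replicate 2 the count was 1126. This library was gated for mCherry, whereas the Tbxt 7 d cells were double negative, so the test was repeated, as a choice made after seeing the data, with the Sox2-derived double-negative cells of the same medium and time. It then passed for 1194 genes (9.23%), 490 higher (3.79%) and 704 lower (5.44%). Of the 239 named genes 141 passed with the mCherry cells and 82 with the double-negative cells. Most named genes were picked for a large change in the Tbxt lineage, which is a term of this difference. These counts are therefore raised by selection and cannot be read against the shares of all genes. Among lists, with the mCherry cells, the difference was called higher for 14 of 22 collagen genes, 15 of 23 matrix glycoprotein genes and 10 of 24 TGFb and BMP genes, with 0 lower in each. It was called lower for 11 of 14 caudal epiblast genes, 9 of 12 genes of Hox paralogs 1 to 4 and 18 of 26 cell cycle genes, with 0 higher in each. With the double-negative cells it was called higher for 3 collagen genes, 5 matrix glycoprotein genes and 5 TGFb and BMP genes, and lower for 7 caudal epiblast genes, 4 genes of Hox paralogs 1 to 4, 11 cell cycle genes and 1 collagen gene.

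The largest positive differences among the named genes were in Shox2 and in Col1a2. Shox2 stood at 2.16 CPM in Sox2-derived mCherry cells at 7 d and at 2.52 and 2.97 CPM in Sox2 48 h cells, against the rise in the Tbxt lineage given above, a difference of 7.29 ± 0.82 (adjusted p = 0.000144). In the Sox2-derived double-negative cells it stood at 3.43 CPM (difference 6.81 ± 0.82, adjusted p = 0.000425). Col1a2 stood at 4.93 CPM in Sox2-derived mCherry cells at 7 d and at 20.4 and 17.1 CPM in Sox2 48 h cells, so that its fitted change was 5.53 in the Tbxt lineage and −1.73 in the Sox2 lineage (difference 7.27 ± 1.02, adjusted p = 0.00158). It stood at 39.8 CPM in the double-negative cells (difference 4.49 ± 1.02, adjusted p = 0.0255). Lum, at 0.617 CPM in mCherry cells and at 0 in both Sox2 48 h libraries, stood at 54.6 CPM in the double-negative cells, where its difference missed the threshold (1.80 ± 0.62, adjusted p = 0.088). The largest negative difference among the named genes with the mCherry cells was in Lmo2, a cofactor gene of blood and endothelial progenitors. It stood at 1.16, 0.198 and 1.58 CPM in Tbxt 7 d cells and at 257 and 357 CPM in Tbxt 48 h cells. In the Sox2 lineage it stood at 44.5 CPM in mCherry cells and at 6.40 CPM in double-negative cells at 7 d, and at 22.7 and 17.6 CPM at 48 h. The difference was −8.45 ± 0.56 with mCherry cells (adjusted p = 2.86e-06) and −5.83 ± 0.56 with double-negative cells (adjusted p = 9.13e-05). Cxcr4, a chemokine receptor gene, fell to 0.582, 0.594 and 0.263 CPM in Tbxt 7 d cells, against 209 and 242 CPM in Tbxt 48 h cells. Sox2-derived cells at 7 d held 117 CPM when gated for mCherry and 2.74 CPM when double negative, and Sox2 48 h cells 49.8 and 71.3 CPM. Its level was thus low in double-negative cells of both lineages, and its difference was −8.22 ± 0.41 with mCherry cells and −3.25 ± 0.41 with double-negative cells (adjusted p = 0.000599). Foxb1, a forkhead factor gene, had 1 read in all in Tbxt 7 d cells and 205 and 186 CPM in Tbxt 48 h cells (a ratio of 2432, 95% exact counting interval 436 to 96086). It was at 134 CPM in mCherry cells and 3.20 CPM in double-negative cells of the Sox2 lineage at 7 d, and at 178 and 201 CPM in Sox2 48 h cells. Its differences were −7.00 ± 0.28 with mCherry cells and −1.99 ± 0.28 with double-negative cells.

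Some large changes of the Tbxt lineage had a counterpart of like size in the mCherry cells. Hoxd11 changed by 5.49 in the Tbxt lineage and 5.78 in the Sox2 lineage, a difference of −0.30 ± 0.97 (adjusted p = 0.882). Cyp26b1 changed by 4.38 in the Tbxt lineage and 4.73 in the Sox2 lineage (difference −0.35 ± 0.65, adjusted p = 0.773), and Lmx1b by 4.13 in the Tbxt lineage and 3.64 in the Sox2 lineage (0.50 ± 0.58, adjusted p = 0.625). These standard errors leave room for differences of about 1 log2 unit or more, so equal change is not shown. Prrx1 had fitted changes of 7.58 in the Tbxt lineage and 3.30 in the Sox2 lineage, and the difference passed (adjusted p = 0.021), but not with double-negative cells (1.93 ± 1.04, adjusted p = 0.267). Twist1 had fitted changes of 6.98 in the Tbxt lineage and 2.49 in the Sox2 lineage, and the difference passed as well (adjusted p = 0.000914, and 0.0194 with double-negative cells).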

How the data were processed

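The authors deposited a single table, of CPM values for 78409 rows, and every library in it sums to 1000000. Per the labels' protocols, bead-purified RNA was primed with oligo-dT primers that carry unique molecular identifiers, then tagmented. Per the submitters' processing notes, STAR 2.7, SAMtools 1.21 and GRCm39 were used; annotation, counting and multi-mapping rules were not given in the sources used here. Rows without a gene name (21909, with 1.10 to 1.81% of CPM) and 92 spike-in rows were left out, and 627 rows sharing 311 symbols were summed, so reads of overlapping genes or close paralogs may be split in ways not known.

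The most common small value of a library was taken as 1 read. Only 71.1 to 78.7% of nonzero values were whole multiples of it within 0.01 reads, so whole reads were not recovered and no count test was the main result.

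limma 3.58.1 in R 4.3.3 (limma-trend, robust moderation, two-sided) was run on log2(CPM + 1) with every group of the series in 1 fit (8 groups, 15 libraries, 7 residual degrees of freedom), for the 12943 genes that reached 5 CPM in 2 or more libraries, with Benjamini-Hochberg adjustment over all of them and a threshold of 0.05. A second contrast took the change in the Tbxt lineage minus that in the Sox2 lineage, with the mCherry library at 7 d and, added after seeing the data, with the double-negative library. The fit was also run on simulated data in which most genes did not change between groups, unlike here, so that run does not bear on the calls given here. A fold against a group at 0 is a bound against 3 reads per library, and ratios against 1 to 3 reads carry exact binomial intervals over pooled reads.

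The 37 gene lists, with 479 of 565 members tested, and the compared libraries were chosen with earlier results of these data known. Named genes are Sox2 and Tbxt, the 12 largest changes in each direction with libraries that do not overlap and at least 20 CPM in the higher group, and per list up to 5 passing members with the largest change and at most 2 that missed, those of highest level. Other genes in the text were chosen after their values were seen. Levels of different genes are not compared, since CPM are not per length. Alternatives were pseudocounts of 0.25 and 4, no filter, a filter at 20 CPM, quantile normalization, median-of-ratios scaling, limma-voom on inferred reads, array weights, a replicate block, a model with only the compared groups, a 2-fold minimum, leaving out the shallowest library and leaving out each of the 5 libraries. Sequences came from RefSeq tables on GRCm38.p6, whose coordinates were not mixed with the authors' build. Tables and figures were made in Python 3.11.15 (pandas 2.3.3, numpy 2.4.6, matplotlib 3.10.9), with statmod 1.5.0 in R. Some tested genes, including a Hox gene left out of the Hox plot, are counted in their lists but not reported here by name.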

Additional observations from a re-analysis of the deposited data

Results flagged for a closer look

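The change between 48 h and 7 d differed between the Tbxt and the Sox2 lineage, by the test of the difference itself, for 2114 genes with Sox2-derived cells gated for mCherry at 7 d. Among the named genes the 5 largest positive differences, Tbxt lineage minus Sox2 lineage on the log2 scale, were those of Shox2 (7.29), Col1a2 (7.27), Cdo1 (7.00), Lum (6.90) and Pcdh10 (6.88). The 5 largest negative differences were those of Lmo2 (−8.45), Dll1 (−8.40), Cxcr4 (−8.22), Cdx2 (−7.06) and Foxb1 (−7.00). Cdo1 stood at 196, 530 and 466 CPM in Tbxt 7 d cells and at 2.06 CPM in mCherry cells and 41.1 CPM in double-negative cells of the Sox2 lineage at 7 d. Cdx2 stood at 1.46, 0.396 and 0.527 CPM in Tbxt 7 d cells and at 294 CPM in mCherry cells and 8.69 CPM in double-negative cells of the Sox2 lineage at 7 d. Dll1 stood at 14 CPM in mCherry cells and 0.914 CPM in double-negative cells. With the double-negative library, the gate of the Tbxt 7 d cells, the differences were 6.81 for Shox2, 4.49 for Col1a2, 3.22 for Cdo1, 1.80 for Lum, 3.40 for Pcdh10, −5.83 for Lmo2, −5.43 for Dll1, −3.25 for Cxcr4, −2.13 for Cdx2 and −1.99 for Foxb1. Those of Lum (adjusted p = 0.088) and Pcdh10 (adjusted p = 0.0691) missed the threshold. Each Sox2-derived gate at 7 d was a single library.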

How the results depend on the processing

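Of 239 named genes 179 passed the threshold, a share raised by the naming rule, which took mostly passing genes. Of these, 162 kept the call in each of the 17 alternative settings that tested them, the 2-fold minimum aside. A gene left untested by a setting, as by the filter at 20 CPM, was not counted as lost there. Without 1 of the 5 libraries at a time, between 5122 and 7220 genes passed for Tbxt 7 d against Tbxt 48 h, and between 1126 (without Tbxt 48 h replicate 2) and 2980 for the difference between lineages. The 2-fold minimum called 1628 and 324 genes for these 2 results. The difference between lineages further gave 4317 genes with array weights, whose estimation stopped before reaching its tolerance, 1381 with a replicate block and 1194 with the Sox2-derived double-negative library at 7 d, chosen after seeing the data; the cause was not tested. The block gave 6336 genes for Tbxt 7 d against Tbxt 48 h. The labels do not say whether shared replicate numbers pair the samples, and the main fit used no pairing. Only 2 numbers are shared, and deviations of same-numbered libraries correlated with r of −0.15 and −0.02. With 2 libraries at 48 h, whose deviations mirror each other, these values cannot settle the question. Median-of-ratios scaling gave 3644 higher and 3379 lower calls, and a filter at 20 CPM 2636 and 2580. Among the 239 named genes no change of sign passed the threshold. Outside them some genes changed sign and passed without Tbxt 7 d replicate 1, among them Notum (−0.69 with all libraries, 0.91 without that library) and Tagln (0.13 and −1.50). Depth limits genes near 3 reads, and 1 library at 7 d limits the Sox2 lineage.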

Other observations

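Further genes outside the lists, all chosen after their values were seen, passed the threshold. Among transcription factor genes, Bcl11b stood at 181, 178 and 204 CPM in Tbxt 7 d cells and at 1.92 and 0.675 CPM in Tbxt 48 h cells (6.41 ± 0.35). Mecom stood at 134, 78.1 and 94 CPM in Tbxt 7 d cells and at 2.02 and 1.01 CPM in Tbxt 48 h cells (5.35 ± 0.32). Lhx2, a homeobox gene of limb mesenchyme, stood at 54.4, 102 and 87.4 CPM in Tbxt 7 d cells and at 1.11 and 1.35 CPM in Tbxt 48 h cells (5.16 ± 0.56). Receptor genes rose as well. Pth1r, the receptor gene for parathyroid hormone in skeletal cells, rose by 5.59 ± 0.32, Ddr2, a collagen receptor kinase gene, by 6.12 ± 0.54, and Ackr3, a scavenger receptor gene for the ligand of Cxcr4, by 5.38 ± 0.30, while Cxcr4 itself fell. Agtr2, an angiotensin receptor gene, was at 10.8, 229 and 204 CPM in Tbxt 7 d libraries, where replicate 1 was the low one, and at 0 in both Tbxt 48 h libraries.

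Genes that fell outside the lists included Gbx2, a posterior homeobox gene (1.75, 0 and 0.263 CPM in Tbxt 7 d cells, against 82 and 82.2 CPM in Tbxt 48 h cells), Nr6a1, a nuclear receptor gene of the trunk (−4.72 ± 0.26), Phlda2, an imprinted growth inhibitor gene (−6.03 ± 0.42), and Chd7, a chromatin remodeller gene (−3.19 ± 0.39). Psat1, an enzyme gene of serine synthesis, stood at 32.9, 36.2 and 32.9 CPM in Tbxt 7 d cells and at 377 and 298 CPM in Tbxt 48 h cells (−3.26 ± 0.17), and Gldc, a glycine-cleaving enzyme gene, fell by 3.61 on the log2 scale. Arg1, the arginase gene, was at 0 in all Tbxt 7 d libraries and at 31.6 and 23.5 CPM in Tbxt 48 h libraries.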
